A study of Rattus norvegicus with 4 samples.

Results

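Slitrk1, Slitrk6, Lrrc4c, Lrrn1, Lrrn3 and Flrt3 encode leucine-rich-repeat membrane proteins of neurons and their precursors, and Ntng1 encodes netrin-G1, the membrane-anchored ligand of the Lrrc4c protein. The members were all probe sets whose only annotated gene symbol was one of these 7. They came to 5 of the 14217 genes named on the array, with 7 of its 31042 probe sets: 3 for Slitrk1 and 1 each for Lrrc4c, Lrrn3, Flrt3 and Ntng1. The annotation used here paired no probe set with Slitrk6 or Lrrn1, by symbol or by Entrez identifier, so both are named only. The genes were picked with the genotype differences of these same 4 arrays known, so those differences are described here without a test and support nothing.

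RNA came from the telencephalon, the front part of the embryonic forebrain, of Sprague-Dawley rat embryos at E11.5, days counted from the vaginal plug. The Pax6 mutant embryos were homozygous for the rSey2 allele (rSey2/rSey2) and the controls were wild type, with 2 one-colour Affymetrix arrays per genotype. Both genotypes shared strain, age, dissection and labelling, and the design text gives 13 telencephalons, so each array stands for pooled embryos. The labels call the arrays biological replicates without naming litters, so the spread between arrays may be partly technical. No embryo with another Pax6 allele was measured, and Pax6 is altered in every cell of the mutant. Pax6 is a paired-box and homeodomain transcription factor of the dorsal telencephalon. Its own probe set read 11.78 and 11.63 in the mutant arrays, against 11.75 and 11.85 in the wild-type arrays, with overlap. The sources used here do not place the rSey2 lesion relative to that probe set, so it does not check the genotype labels.

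Leucine-rich-repeat proteins carry a curved stack of short repeats outside the cell, which binds partners on neighbouring cells. Slitrk proteins bind receptor tyrosine phosphatases of the LAR type and act on neurite growth and synapse formation. Lrrc4c, also called netrin-G ligand 1, binds netrin-G1 on the axon, and Flrt proteins bind Unc5 receptors and latrophilins. Many of these genes are known mainly from later neurons, while the telencephalon at this stage consists largely of dividing neuroepithelium.

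Slitrk1 and Lrrc4c were the members with the widest differences between genotypes, in opposite directions. The 250 bases before their annotated starts are shown to allow a look for sites that Pax6 or basic helix-loop-helix factors could read. The sequences are from RefSeq on the rat build GRCr8, 5′ to 3′ on the gene's strand. All 7 members had an entry, each with 1 start per gene, and for a gene with several starts the window may not be the start used in this tissue. Slitrk1 lies on the minus strand at chr15:92141742-92141991, and Lrrc4c on the plus strand at chr3:102760500-102760749. Capitals mark CAGATG or its reverse complement, an E-box form bound by proneural factors.
Slitrk1: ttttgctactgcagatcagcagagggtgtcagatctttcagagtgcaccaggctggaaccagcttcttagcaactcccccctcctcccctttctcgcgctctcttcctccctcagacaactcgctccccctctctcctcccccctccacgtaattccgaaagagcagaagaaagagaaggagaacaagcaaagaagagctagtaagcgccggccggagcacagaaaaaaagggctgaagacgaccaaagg
Lrrc4c: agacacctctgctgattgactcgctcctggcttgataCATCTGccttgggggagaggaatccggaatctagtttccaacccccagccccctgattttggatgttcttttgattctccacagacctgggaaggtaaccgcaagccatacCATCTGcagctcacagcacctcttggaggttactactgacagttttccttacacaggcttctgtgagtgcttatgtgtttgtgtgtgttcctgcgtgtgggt

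Both strands of these 250-base windows were searched. The Pax6 paired-domain core TTCACGC was in 0 of the 7 member windows and in 1.06% of all 33469 RefSeq windows. The homeodomain motif TAATTA was in 0 of 7 member windows, against 4.86% of all windows. CAGATG was present for Lrrc4c, Flrt3 and Ntng1, 3 of 7 members, and in 14% of all windows. The E-box forms CAGCTG (1 of 7, Lrrn3; 12% of all windows) and CACGTG (0 of 7; 5.59%) were also searched. The Slitrk1 window had 54.4% G and C with 9 CpG dinucleotides, the Lrrc4c window 50.8% with 4, and the median over all windows was 51.2% with 5. A match is a description of letters and not a site, and a missing match says only that these letters are not in this window.

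Values below are GCRMA values on the log2 scale, in which a difference of 1 is a doubling. Array values of different probe sets were used together for the dim limit, for the choice of a gene's brightest probe set and for the marker sums. Values of different genes were not set against each other as levels. Probe sets with a mean over the 4 arrays under 3.21 were left out as dim, which left 18625. Of the 7 member probe sets 6 were tested, and the third Slitrk1 probe set, at a mean of 3.03, was left out. Just inside that limit lay Ntng1 at a mean of 3.36. Over all tested probe sets limma called 0 at an adjusted p of 0.05 (0%), with 680 at an unadjusted p under 0.05, so none of the members passed either.

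Slitrk1, a neuronal transmembrane protein that promotes neurite outgrowth, had values of 5.75 and 5.68 in the mutant arrays, against 4.45 and 4.83 in the wild-type arrays (probe set 1391019_at). Both mutant arrays were higher than both wild-type arrays, and the closest pairing was 0.85 apart. The means were 5.71 ± 0.048 in the mutant and 4.64 ± 0.27 in wild type (SD, n = 2 each), a difference of 1.07 (SE 0.17), or 2.10-fold. With 16 added to the linear values before the logarithm, which damps low signals, the difference was 0.74. In whole tissue, a change in the number of cells of a type and a change in RNA per cell cannot be told apart, in either direction.

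The other 2 Slitrk1 probe sets did not share this difference. 1397632_at read 3.3849 in both mutant arrays, against 3.3849 and 3.3911 in the wild-type arrays. 1392178_at read 3.0317 and 3.0263 in the mutant arrays, against 3.0263 in both wild-type arrays. In each of these probe sets 3 of the 4 arrays gave the same value to 4 decimals, as can happen with GCRMA in probe sets at background. Of the tested probe sets, 2180 (11.7%) had such a repeated value in at least 2 arrays. The Slitrk1 difference therefore rests on 1 probe set out of 3.

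Lrrc4c, the netrin-G1 receptor of dendrites, lay on the other side. Its values were 3.49 and 3.54 in the mutant arrays, against 5.50 and 4.59 in the wild-type arrays. The groups did not overlap, and the closest pairing was 1.06 apart, but the wild-type arrays differed from each other by 0.91. The means were 3.51 ± 0.036 in the mutant and 5.05 ± 0.64 in wild type (SD, n = 2 each). The difference was -1.54 (SE 0.36). The mutant values were close to the dim limit of 3.21, so no fold is given, and with 16 added on the linear scale the difference was -0.86. Without wild-type replicate 1 it was -1.08, and without wild-type replicate 2 it was -1.99.

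Ntng1, the ligand of Lrrc4c, was near the dim limit in all arrays. Its values were 3.35 and 3.42 in the mutant arrays, against 3.35 and 3.32 in the wild-type arrays. The genotypes shared the value 3.3484 to 4 decimals, and no direction can be read from it. The difference was 0.050 (SE 0.073).

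Lrrn3, a leucine-rich-repeat and immunoglobulin-domain neuronal protein, had values of 7.44 and 7.54 in the mutant arrays, against 7.06 and 7.38 in the wild-type arrays. The groups did not overlap, but the closest pairing was only 0.063 apart. The difference of 0.27 (SE 0.15) was smaller than the 0.32 between the 2 wild-type arrays. It was 0.11 without the wild-type array of replicate 1 and 0.44 without that of replicate 2, so 1 array decides its size.

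Flrt3, which binds Unc5 and latrophilin receptors and acts in FGF signalling, had values of 9.85 and 9.73 in the mutant arrays, against 9.77 and 9.70 in the wild-type arrays. The groups overlapped, and the means of 9.79 ± 0.090 and 9.74 ± 0.044 (SD, n = 2 each) differed by 0.055 (SE 0.087). Among the members, Flrt3 thus had a clear signal in every array and a genotype difference within the spread between arrays.

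**Figure D1:**
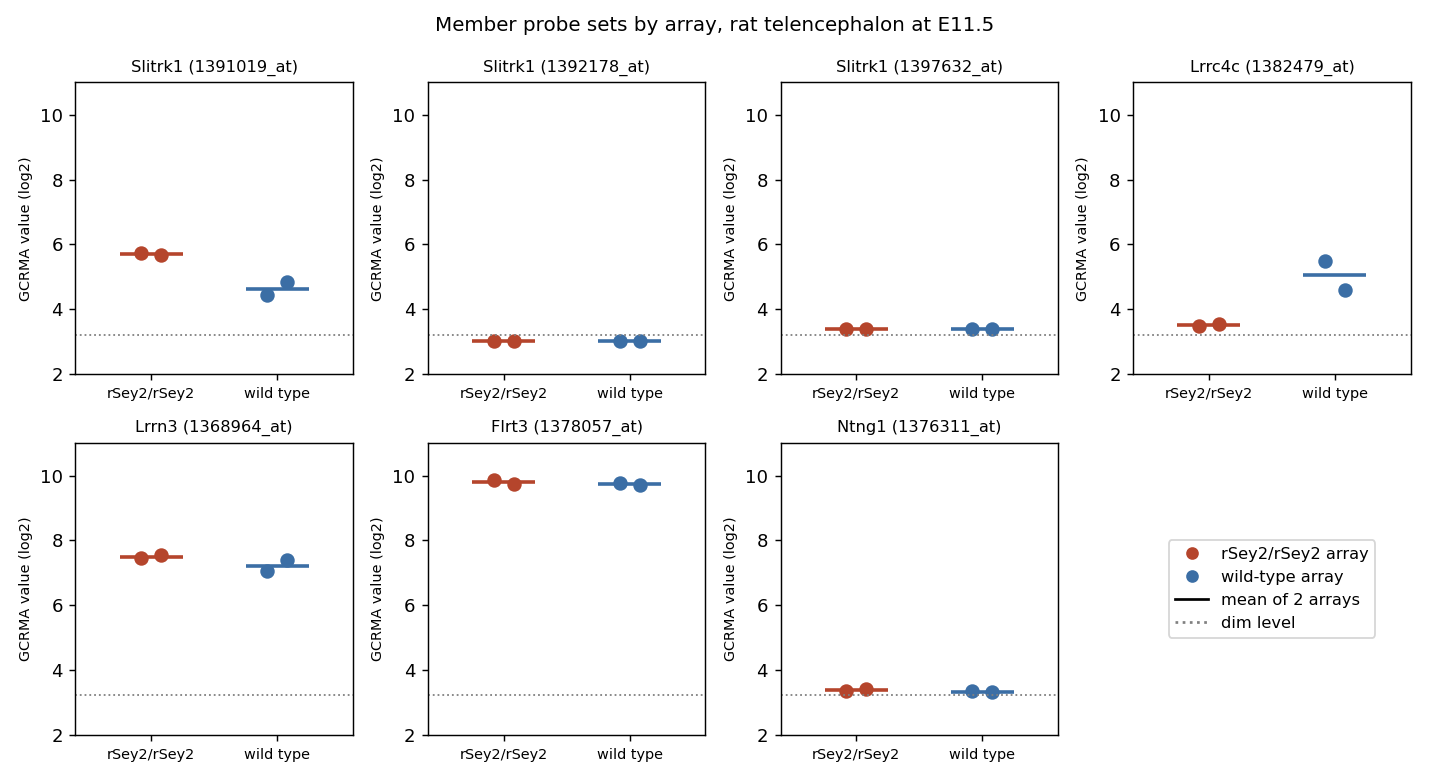
GCRMA values (log2) of the 7 member probe sets in the rSey2/rSey2 arrays (left, red) and the wild-type arrays (right, blue), with the mean of 2 arrays as a bar and the dim limit of 3.21 as a dotted line. Slitrk1 probe set 1391019_at was higher and Lrrc4c lower in both mutant arrays, while the other Slitrk1 probe sets and Ntng1 lay near the dim limit in both genotypes.

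In all, 3 of the 6 tested member probe sets did not overlap between genotypes, against 23.2% of all tested probe sets. The 2 that were higher in the mutant, Slitrk1 and Lrrn3, compare with 11.4% of all tested probe sets, and the 1 that was lower, Lrrc4c, with 11.8%. Lrrc4c was also the 1 member at least 1 log2 unit apart in all 4 pairings of a mutant and a wild-type array, as were 0.172% of all tested probe sets. Among all tested probe sets, 22 (0.118%) were higher by as much as Slitrk1 or more, 21 (0.113%) were lower by as much as Lrrc4c or more, and 1385 (7.44%) were higher by as much as Lrrn3 or more. Since the members were chosen on this contrast, nothing is read from these shares.

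The difference between arrays of the same genotype was not used in choosing the members. Replicate 2 minus replicate 1 was -0.069 for Slitrk1 1391019_at in the mutant and 0.38 in wild type. For Lrrc4c it was 0.051 in the mutant and -0.91 in wild type. Both genes thus varied more between the wild-type arrays than between the mutant arrays, and in wild type the array with more Lrrc4c had less Slitrk1. The mutant values of Lrrc4c lay close to the dim limit, so their small spread is not read as a trait of the gene. The opposite order of the genes in wild type rests on the wild-type pair of arrays alone, so nothing is read from it. Over all tested probe sets the median size of the difference between replicates was 0.20 in the mutant and 0.16 in wild type. Flrt3 was below these medians in both genotypes, at -0.13 in the mutant and -0.063 in wild type.

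**Figure D2:**
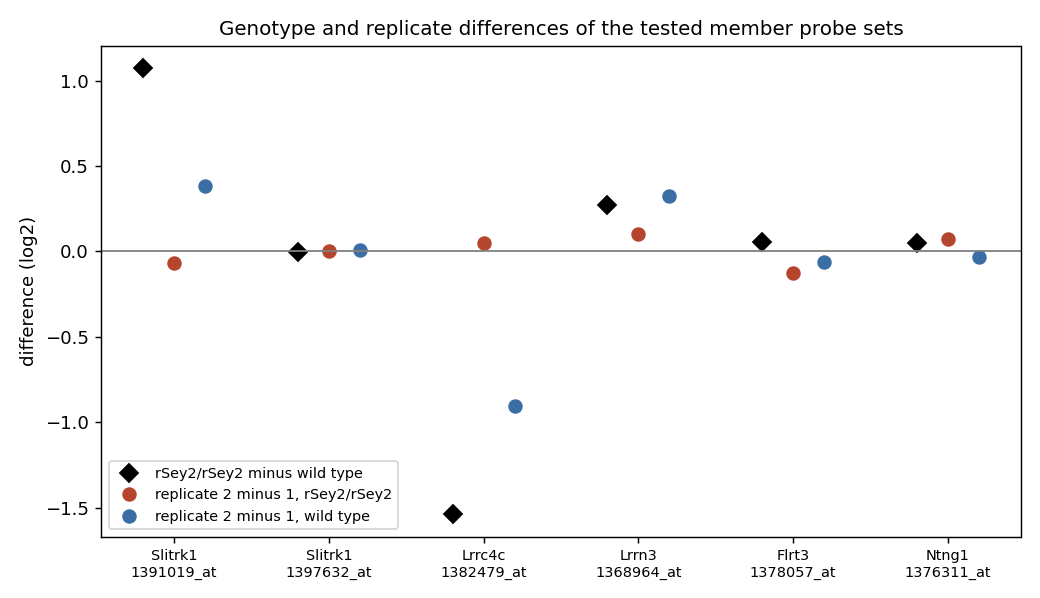
Differences on the log2 scale for the 6 tested member probe sets: rSey2/rSey2 minus wild type (black diamonds), and replicate 2 minus replicate 1 within the mutant (red) and within wild type (blue). The genotype differences of 1.07 for Slitrk1 1391019_at and -1.54 for Lrrc4c exceeded both replicate differences in size. That of Lrrn3 (0.27) was below its wild-type replicate difference of 0.32. The members were chosen on the genotype difference, and a difference of means varies less than one between single arrays, so nothing is read from this.

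The genes whose values over the 4 arrays lay closest to those of Slitrk1 1391019_at, by Euclidean distance after each probe set was centred on its mean, were Robo3 (0.25), Pim1 (0.26) and Plaat3 (0.27). Robo3 is an axon guidance receptor, Pim1 a serine/threonine kinase and Plaat3 a phospholipase and acyltransferase. Robo3 read 4.12 and 3.98 in the mutant arrays, against 2.997 and 3.03 in the wild-type arrays. Both wild-type values of Robo3 were under the dim limit, so it passed the filter only through the mutant arrays. Closest to Lrrc4c were Arg1 (0.32), Tnnt2 (0.46) and Filip1 (0.49), which encode arginase 1, cardiac troponin T and a filamin-interacting protein. Arg1 read 6.32 and 6.24 in the mutant arrays, against 8.09 and 7.62 in the wild-type arrays. With 4 arrays such neighbours are loosely fixed: leaving out any 1 array kept 0 of the 3 for Slitrk1 and between 0 and 3 for Lrrc4c.

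Related genes were taken from a list of 66 symbols of other leucine-rich-repeat neuronal membrane proteins and of binding partners of the members, older names of the latrophilins included. Of these, 46 had a probe set with that symbol alone and 34 were tested, each by its brightest probe set. As a group they showed little difference: 21 were higher and 12 lower in the mutant, 0 passed in either direction (limma, adjusted p = 1 for each, while 1 gene had an unadjusted p below 0.05), and the median difference was 0.028, against 0 over all 9840 tested genes. The remaining gene, Lingo1, had the same value in all 4 arrays. For Lrrn2, Unc5c, Rtn4r and Lgi4, 3 of the 4 arrays shared a value, so their counted direction rests on 1 array. Without mutant replicate 2 the median was -0.009, and fewer of the genes were higher. Genotypes did not overlap for 7 higher and 2 lower genes of the 34, against 12.2% higher and 12.1% lower of all tested genes.

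Of the Slitrk family itself, the 1 further gene with a probe set, Slitrk3, was dim in all arrays. In the netrin-G system, Lrrc4 (netrin-G ligand 2) had values of 6.30 and 6.71 in the mutant arrays, against 6.29 and 6.26 in the wild-type arrays. The difference of 0.23 (SE 0.17) came mostly from mutant replicate 2, and it was 0.026 without that array. Lrrc4b (netrin-G ligand 3) differed by -0.022 in its brightest probe set, with overlap. Its other tested probe set, 1375149_at, was lower on average in the mutant, by -0.195 (SE 0.23), also with overlap. A further Lrrc4b probe set was dim in all arrays. A difference as wide as that of Lrrc4c was therefore not seen in the other 2 netrin-G ligands. The difference between these genes was not tested.

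In the Lrrn family, Lrrn4 was at 7.37 and 7.80 in the mutant arrays, against 7.29 and 7.35 in the wild-type arrays, a difference of 0.27 (SE 0.18). It was 0.055 without mutant replicate 2. Lrrn2 differed by 0.026, but it read 4.7798 in mutant replicate 1 and in both wild-type arrays, so no direction is read from it.

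Among Flrt genes and their partners, 7 of 10 tested genes were higher and 3 lower, with a median of 0.14, and 0 passed in limma. Tenm3 and Tenm4 are teneurins, large membrane proteins that bind latrophilins together with Flrt proteins, and are named because their arrays did not overlap; the 3 probe sets of Tenm2 were dim and not tested. Tenm3 read 9.08 and 9.38 in the mutant arrays, against 9.03 and 8.74 in the wild-type arrays, a difference of 0.35 (SE 0.17, 95% interval -0.18 to 0.87). Tenm4 read 9.57 and 9.83 in the mutant arrays, against 9.40 and 9.44 in the wild-type arrays, a difference of 0.28 (SE 0.12, 95% interval -0.091 to 0.66). The latrophilin Adgrl1 differed by 0.051 with no overlap, while Adgrl2 and Adgrl3 overlapped. Without mutant replicate 2 the difference was 0.20 for Tenm3 and 0.15 for Tenm4. Flrt1 (0.67, SE 0.38) and the netrin receptor Unc5a (-0.48, SE 0.29), chosen after their values were seen, had the widest differences of the list. Their arrays overlapped or shared a value between genotypes, and both genes had values under the dim limit. The mutant mean of Unc5a was 3.01, under that limit, and its mean over all arrays was 3.25, just inside it. Flrt1 was under the limit in wild-type replicate 1, at 3.07. No direction is read from either gene.

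Among other leucine-rich-repeat membrane proteins, 8 of 16 tested genes were higher and 7 lower. Ntrk2, the BDNF receptor TrkB, had values of 8.59 and 8.78 in the mutant arrays, against 9.07 and 9.07 in the wild-type arrays. It differed by -0.39 (SE 0.10, unadjusted p = 0.0261, limma adjusted p = 1). Lrig1, a negative regulator of EGF-family receptors, had values of 10.22 and 10.54 in the mutant arrays, against 10.77 and 10.71 in the wild-type arrays, and differed by -0.37 (SE 0.14). It differed by -0.21 without mutant replicate 1. On the other side, Islr2, a regulator of axon extension, differed by 0.37 (SE 0.20; 0.12 without mutant replicate 1), and Tpbg, the trophoblast glycoprotein that can inhibit Wnt signalling, by 0.19 (SE 0.11). Tpbg differed by 0.090 once wild-type replicate 2 was left out. The 4 tested presynaptic receptor genes, among them the Slitrk-binding phosphatases Ptprd (0.093) and Ptprs (0.030), all overlapped between genotypes.

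**Figure D3:**
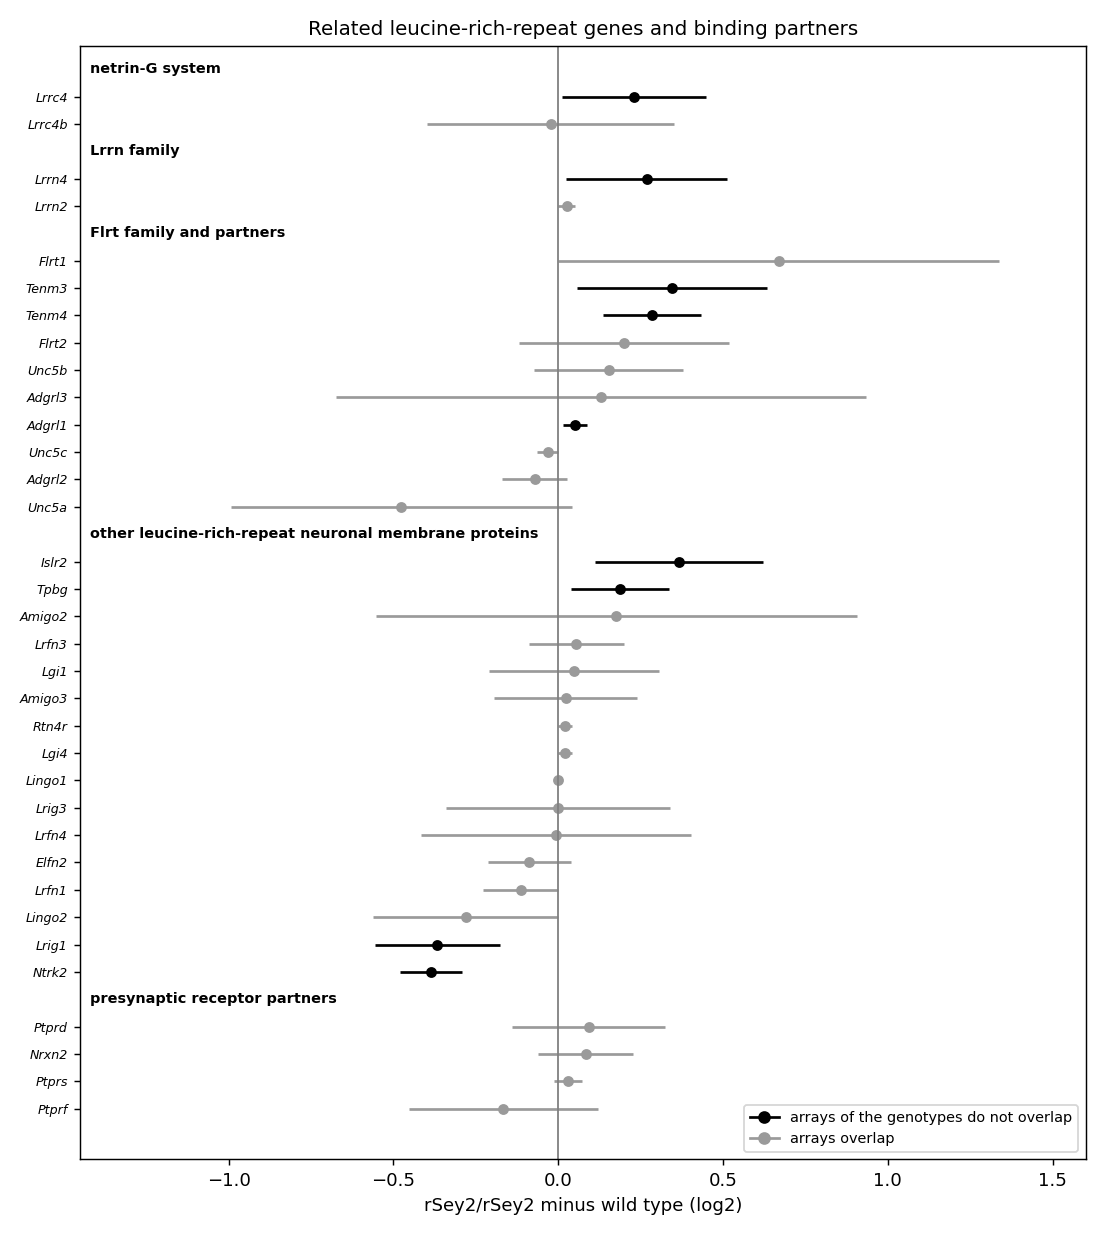
Differences between rSey2/rSey2 and wild type (log2, x axis) for the 34 tested related genes, grouped by role. Points are differences of the 2-array means and lines run from the smallest to the largest of the 4 array pairings. Black marks the 9 genes whose arrays did not overlap, 7 higher and 2 lower (over all tested genes, 12.2% were higher and 12.1% lower without overlap), and all 9 lay within 0.39 of 0.

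Markers of the dissected tissue and of other cells were read beside these results. The telencephalic genes Lhx2, Emx2, Sox2, Otx2 and Six3 each had a probe set above the dim limit in every array. Of these 5 genes 4 were higher and 1 lower in the mutant. Their summed linear signal was 34129 to 35197 in the mutant arrays and 28756 to 29869 in the wild-type arrays. The hindbrain and midbrain markers En2 and Hoxb2, with 1 probe set each, lay at or near the lowest value of 2.07 in every array. A probe set of Sox2 also lay at 2.07 in every array, while the brightest Sox2 probe set had a mean of 13.67. Absence of En2 or Hoxb2 RNA is therefore not read from these values. Beside the higher Slitrk1, both tested ventral telencephalic markers (Nkx2-1 and Dlx1) were higher, with a summed linear signal of 1404 to 1625 in the mutant arrays and 941 to 1021 in the wild-type arrays. Of 6 tested neuronal markers 3 were higher and 3 lower, with sums of 2014.5 to 2103 in the mutant arrays and 2042 to 2451 in the wild-type arrays. All 5 tested erythroid markers were higher, with sums of 76407 to 76816 in the mutant arrays and 66366 to 66909 in the wild-type arrays. Hbb differed by only 0.051, with overlap. All 4 tested endothelial markers were higher, with sums of 2356 to 2730 in the mutant arrays and 2038 to 2075 in the wild-type arrays. Tek differed by only 0.0037, with overlap, and Pecam1 shared a value between genotypes. Each sum is weighted towards the brightest probe sets of its list. Beside the lower Lrrc4c, 3 of 4 tested surface ectoderm markers were lower (Epcam and Krt18 without overlap), with sums of 348 to 378 in the mutant arrays and 377 to 455 in the wild-type arrays. The other, Cdh1, was higher without overlap, at 7.49 and 7.66 in the mutant arrays, against 7.11 and 6.85 in the wild-type arrays. Of 4 tested mesenchyme and neural crest markers 2 were lower and 2 higher, with sums of 1101 to 1254 in the mutant arrays and 1248 to 1384 in the wild-type arrays. Of 4 tested diencephalon and eye markers 2 were higher and 2 lower, with sums of 3745 to 4182 in the mutant arrays and 3957 to 4405 in the wild-type arrays. Among them Rax differed by 0.57, Tcf7l2 by -0.24 and Mitf by -0.30, each without overlap in its brightest probe set. The closest pairing for Mitf was only 0.0034 apart, and its other probe set shared the value 5.6778 between genotypes. The other Rax probe set overlapped. Beside all these marker genes without overlap stand 12.2% higher and 12.1% lower without overlap over all tested genes. The part of these cells in the Slitrk1 and Lrrc4c values was not tested.

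The direction of the Slitrk1 and Lrrc4c differences was the same under all 10 alternatives that kept their probe sets. Most of these could not have turned it, so nothing is read from the constant direction. Filters, the replicate block and leaving out zero-variance probe sets do not change the difference. The pseudocount keeps the order of the arrays, and without overlap the loss of 1 array cannot turn the sign. Slitrk1 1391019_at ran from 0.74 (added 16) to 1.26 (without wild-type replicate 2), and Lrrc4c from -1.99 (without wild-type replicate 2) to -0.86 (added 16). A stricter filter, at a mean of 7.03, left both out. Lrrn3, also without overlap, stayed higher in all 11 alternatives, with the same limit.

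**Figure D4:**
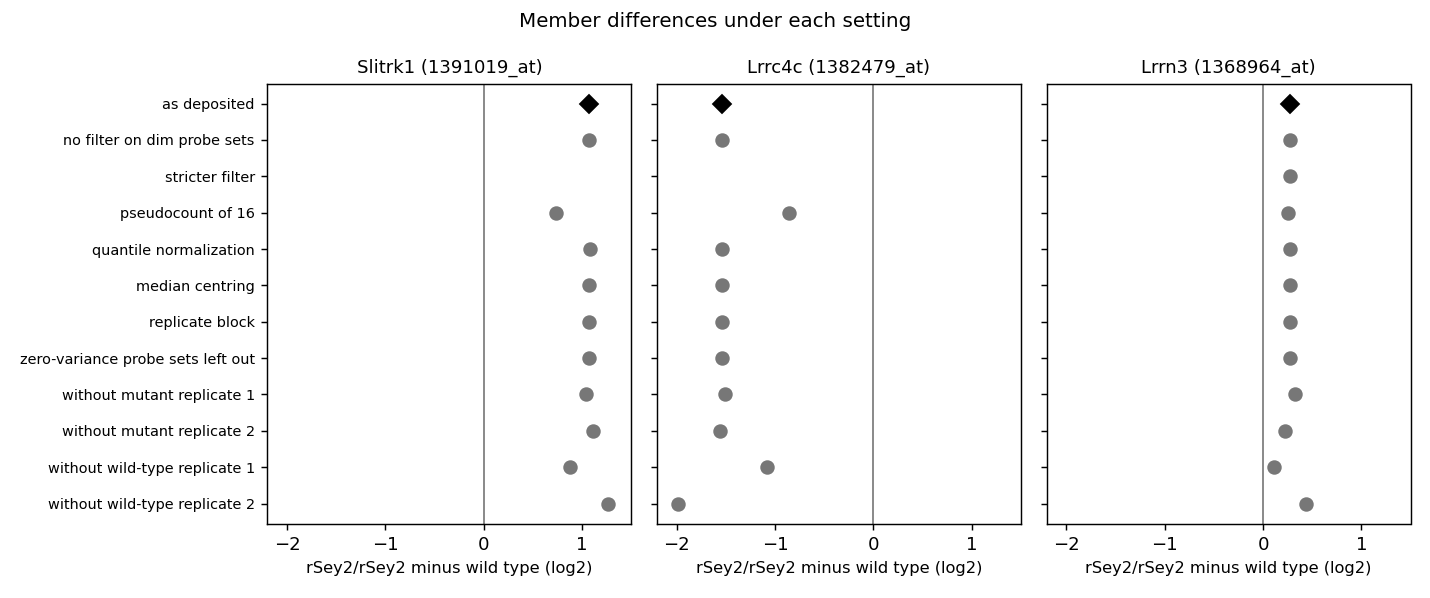
Differences between rSey2/rSey2 and wild type (log2, x axis) for Slitrk1, Lrrc4c and Lrrn3 under the deposited values (black diamonds) and each alternative (grey points). The pseudocount of 16 brought Slitrk1 to 0.74 and Lrrc4c to -0.86, and leaving out wild-type arrays moved Lrrc4c between -1.99 and -1.08; the stricter filter left Slitrk1 and Lrrc4c out, so their panels have no point there.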

How the data were processed

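The deposited table holds 1 log2 value per probe set for each of 4 arrays, made by the authors with GCRMA (background correction, normalization between arrays and probe set summary), per the submitters' processing notes. No source used here gives the version. That the scale is log2 follows from the values, which run from 2.07 to 16.13. Arrays give no read depth, so their number limits the precision. Probe sets were named from the platform annotation where it gave a single symbol, 20826 of 31042. Probe sets under the 40th percentile of the 4-array mean were left out as dim. limma (version 3.58.1, R 4.3.3) fitted genotype over 18625 probe sets with lmFit and eBayes, without a replicate term, with Benjamini-Hochberg adjustment over all of them. An exact permutation test of single values was not used, because 2 against 2 arrays cannot give a two-sided p under 0.333. The members and gene lists were chosen with earlier results of these data known. Named related genes were the tested ones whose genotypes did not overlap, up to 12, and for Slitrk1 and Lrrc4c the 3 genes with the closest centred values. The alternatives were no filter, a filter at the 60th percentile, a pseudocount of 16, quantile normalization, median centring, a replicate block, leaving out zero-variance probe sets, and leaving out each array.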

Additional observations from a re-analysis of the deposited data

How the results depend on the processing

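The 2 arrays per genotype and the low signal of Slitrk1, Lrrc4c and Ntng1 limit what can be measured. Against 0 probe sets past the threshold, the stricter filter gave 1, median centring 2, quantile normalization 2, and the fit without the 249 probe sets of zero variance 2. All of these were lower in the mutant, 0 were members, and the cause was not tested. Leaving out 1 array gave 0 to 0. The count of probe sets without overlap was 4315, or 10205 to 12139 with 1 array left out, where fewer arrays make overlap rarer. The count at least 1 log2 unit apart in all pairings was 32 (3 higher, 29 lower), but 9 with the stricter filter, 16 with the pseudocount (all lower in each), and 90 to 120 with 1 array left out. That split depended on the array left out: it was 53 higher and 53 lower without mutant replicate 1, and 23 and 97 without mutant replicate 2. With wild-type replicate 1 left out it was 25 and 69, and with wild-type replicate 2 left out 41 and 49. The replicate numbers are not stated to pair arrays, and same-numbered arrays correlated at 0.43 in their deviations from the genotype means. With the replicate block 0 probe sets passed (lowest adjusted p = 0.736), and the related-gene list had 0 passing genes and a median of 0.028. No block value exists for counts of overlap. Flrt3 differed by -0.009 without mutant replicate 1. The related-gene list had 0 passing genes under all 11 alternatives, with medians from -0.009 to 0.084.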

Other observations

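Ntrk2 was read by several probe sets. 1383135_at was at 8.35 and 8.53 in the mutant arrays, against 8.57 and 8.74 in the wild-type arrays, a difference of -0.21 (SE 0.12) without overlap. 1397246_at was at 5.13 and 5.73 in the mutant arrays, against 5.46 and 5.87 in the wild-type arrays, a difference of -0.24 (SE 0.29) with overlap. All 3 tested Ntrk2 probe sets were thus lower on average in the mutant, and none passed in limma (adjusted p = 1 each). These further probe sets were chosen after their values were seen.

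In the RefSeq gene order of GRCr8, Slitrk1 and Slitrk6 are neighbours with 0 protein-coding genes between them, and Slitrk5 follows Slitrk6. Slitrk6 and Slitrk5 are not named on the probe sets used here, so whether the neighbours share the Slitrk1 difference was not tested.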
